A study of Mus musculus with 90 samples.

Results

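The globin and red cell transcripts are 5 genes: the adult alpha globin genes Hba-a1 (ENSMUSG00000069919) and Hba-a2 (ENSMUSG00000069917), the adult beta globin genes Hbb-bs (ENSMUSG00000052305) and Hbb-bt (ENSMUSG00000073940), and Alas2 (ENSMUSG00000025270). They were chosen by name, as a gauge of blood left in dissected brain, and each was found as 1 row of a gene count table with 37991 Ensembl identifiers. All 5 were counted in all 90 libraries and passed the filter on low counts in each region.

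The libraries came from male C57BL/6J mice that had held a cage with a female until 3 h before the trial. For 5 min each resident met either an unfamiliar BALB/cJ male inside a wire mesh cage (intruder) or the same cage holding a paper cup (control), and it was killed by cervical dislocation 30, 60 or 120 min later. Amygdala, frontal cortex and hypothalamus were dissected, and the 18 groups hold 5 libraries each, except 3 for hypothalamus 30 min control and 6 for each frontal cortex 120 min group. The label of the animal ties the regions together: 32 animals gave the libraries, 28 of them all 3 regions. No perfusion step is described in the labels' protocols, and a design note speaks of pooled RNA samples without saying which, so p-values measure the spread between these libraries.

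Haemoglobin is built from alpha and beta globin chains, each holding a heme, and is made in red cell precursors in the bone marrow. Young red cells enter the circulation without a nucleus but with globin mRNA left, so blood in the vessels of an undrained tissue brings globin transcripts into a tissue library. Alas2 is the erythroid form of the enzyme that starts heme synthesis, and Alas1 is the form that other cells use. Low globin expression has also been described in some neurons and glia, and in bulk tissue fewer cells and less RNA per cell cannot be told apart.

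Depth was 38.6 to 58.86 M reads assigned to genes per library, and the 4 globin genes took 0.00467% to 0.0186% of them. Levels are given as CPM, counts per M assigned reads, with TMM scaling, the trimmed-mean scaling of edgeR, over all 90 libraries. Marker genes of 2 regions followed the labels: between hypothalamus and frontal cortex, 8 of 8 cortical genes were called lower in hypothalamus and 11 of 11 hypothalamic genes higher, in a comparison that called 87.4% of all genes. The amygdala list did so less clearly: 5 of 8 genes were called higher and 1 lower in amygdala than in frontal cortex, and 4 higher and 2 lower than in hypothalamus, where the summed CPM of the list was larger (388 to 532 against 230 to 331). Every 30 min library carries 1 token in its column name (ISO) and every 60 and 120 min library another (CERV). The meaning is not given. A difference of 30 min from the later times thus cannot be told apart from that token, whereas 60 and 120 min share it. The leading sequence index is nearly nested in region as well.

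Sequence decides how well the copies can be separated. The coding parts of Hba-a1 and Hba-a2 are 429 bases long and differ at 1 position, C381T, and those of Hbb-bs and Hbb-bt are 444 bases long and differ at 1 position, C417T (counted from 1 at the first base of the start codon, the base of the first-named gene first). Both positions are the third base of a codon, codons 127 and 139. The 31 bases around each difference, shown because they are all that separates the coding parts, read as follows with the differing base in capitals.
Hba-a1 coding window: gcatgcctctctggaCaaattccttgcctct
Hba-a2 coding window: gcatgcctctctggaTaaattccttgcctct
Hbb-bs coding window: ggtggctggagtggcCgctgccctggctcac
Hbb-bt coding window: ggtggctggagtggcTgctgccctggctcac
Of all 50-base stretches in the transcript models, 32.5% were found only in Hba-a1 for that gene, 13.1% for Hba-a2, 34.2% for Hbb-bs, 41.7% for Hbb-bt and 100% for Alas2, when the 5 genes were set against each other. The split of reads within each globin pair is therefore uncertain, whereas the sum over a pair does not depend on that split, though reads that fit both copies may be missing from it. Alas2 is not affected.

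Upstream sequence of the genes was compared because the members moved together. RefSeq's table (GRCm38.p6, a later build than the NCBIM37 that the submitters' processing notes name) matched 5 of 5 members. The 250 bases before the transcription start are given for 4 of them, 5′ to 3′ on the gene's strand, from chr11:32283422-32283671 (plus strand), chr7:103827929-103828178 (minus strand), chr7:103813924-103814173 (minus strand) and chrX:150547167-150547416 (plus strand). Capitals mark 4 motifs searched on either strand: the GATA motif, spelled AGATAA or otherwise TGATAA; the letters CACCC; the box of letters CCAAT; and the box of letters TATAA.
Hba-a1: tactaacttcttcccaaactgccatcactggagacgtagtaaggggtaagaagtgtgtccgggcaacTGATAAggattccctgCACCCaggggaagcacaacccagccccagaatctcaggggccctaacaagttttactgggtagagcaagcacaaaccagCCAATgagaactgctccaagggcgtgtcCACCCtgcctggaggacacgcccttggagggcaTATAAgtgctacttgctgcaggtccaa
Hbb-bs: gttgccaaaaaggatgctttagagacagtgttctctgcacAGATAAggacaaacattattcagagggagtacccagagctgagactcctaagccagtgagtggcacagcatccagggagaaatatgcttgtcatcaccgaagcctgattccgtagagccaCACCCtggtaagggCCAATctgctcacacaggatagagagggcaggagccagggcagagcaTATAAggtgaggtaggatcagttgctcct
Hbb-bt: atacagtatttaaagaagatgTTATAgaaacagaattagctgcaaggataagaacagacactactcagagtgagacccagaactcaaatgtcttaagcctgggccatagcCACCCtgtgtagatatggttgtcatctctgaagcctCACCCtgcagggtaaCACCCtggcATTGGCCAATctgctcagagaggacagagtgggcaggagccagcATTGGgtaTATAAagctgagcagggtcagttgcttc
Alas2: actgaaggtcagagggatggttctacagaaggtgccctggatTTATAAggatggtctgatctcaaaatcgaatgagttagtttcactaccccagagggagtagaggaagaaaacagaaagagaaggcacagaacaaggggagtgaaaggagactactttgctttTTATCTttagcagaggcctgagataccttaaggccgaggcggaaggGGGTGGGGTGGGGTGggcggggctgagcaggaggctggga
Either spelling of the GATA motif occurred in 16.6% of 32851 such windows, CACCC in 52.0%, CCAAT in 33.8%, TATAA in 22.8%, and all 4 in 0.721%. Hba-a1, Hba-a2 and Hbb-bs held all 4, Hbb-bt lacked both GATA spellings and Alas2 lacked CCAAT. The Hbb-bt window does hold the letters GATA beside other bases. In Hbb-bs the GATA spelling began 210 bases before the start, CACCC 90, CCAAT 76 and TATAA 29. Hba-a1 had them at 183, 167 and again 60, 88 and 27. The TATAA letters of Hbb-bt stood at 28 and at 229 bases before the start, and those of Alas2 only at 207 and 208. The windows of the alpha pair were 97.6% identical with 0 mismatches, being the same sequence shifted by a few bases, and those of the beta pair 70.9%. These are matches of letters and not tested sites.

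Hbb-bs gave the most reads, while Hbb-bt lay below both alpha genes. Over 90 libraries Hbb-bs had a median of 47.9 CPM (21.5 to 97.0) and Hbb-bt 9.56 CPM (3.85 to 18.9). Hba-a1 had a median of 20.01 CPM (9.49 to 40.4) and Hba-a2 15.3 CPM (7.89 to 29.0). Alas2 was the lowest, at 2.55 CPM (1.08 to 5.69), which is 58 to 276 reads per library. Per kilobase of exon the median levels were 62.3 CPM for Hbb-bs, 24.6 for Hba-a1, 13.6 for Hbb-bt and 1.06 for Alas2, with Hba-a2 just below Hba-a1, so the order over genes was the same. The order of the alpha copies rests on the uncertain split: per kilobase of 50-base stretches found in that copy only, Hba-a2 stood at 232 CPM and Hba-a1 at 94.9 CPM, which turns it.

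Other genes used by red cells ranged from absent to high. Slc4a1, the anion exchanger of the red cell membrane, had a median of 0.104 CPM. Rhag and Kel, blood group membrane proteins, and Gata1, an erythroid transcription factor, had medians of 0, with 0 reads in 75, 49 and 68 of 90 libraries. Among embryonic globins, Hbb-bh1 and Hbb-bh2 had 0 reads in 90 of 90 libraries, where 3 reads would be 0.0510 to 0.0777 CPM, Hba-x had 0 reads in 86, and Hbb-y had a median of 0.0427 CPM with at most 7 reads. Membrane skeleton genes that neurons also use were high: Sptb had a median of 158 CPM, Dmtn 321 CPM and Ank1 79.6 CPM. Genes that red cell precursors share with many other cells were high too, such as Bpgm at 55.5 CPM, the transferrin receptor Tfrc at 108 CPM and the transcription factor Bcl11a at 71.4 CPM. Among other globins, the oxygen-binding proteins of nerve and connective tissue Ngb and Cygb had medians of 23.8 and 83.0 CPM. Alas1 stood at 45.4 CPM and Fech, which inserts the iron into heme, at 53.2 CPM, against 2.55 CPM for Alas2. White cell and platelet genes spanned a wide range: Ighm, the immunoglobulin mu chain, had a median of 10.2 CPM, close to Hbb-bt, and Ptprc, the common leukocyte antigen, 3.81 CPM, while S100a9 of neutrophils had a median of 0.201 CPM, Cd3e of T cells 0.0218 CPM, and the platelet genes Pf4 and Ppbp 0.671 and 0.0866 CPM.

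Within a group, the members varied more from library to library than most genes. The standard deviation of log2 CPM around the group mean was 0.48 to 0.50 in amygdala, where the median of 17277 genes was 0.15. In frontal cortex it was 0.23 to 0.29 (median of all genes 0.13), and hypothalamus gave 0.36 to 0.39 (median 0.13). Among the 500 genes nearest in level the members stood between the 83.4 and 99.6 percentiles. In the 5 amygdala controls at 120 min, Hbb-bs read 74.9, 44.8, 49.9, 46.0 and 85.3 CPM, and in the 5 intruder libraries 36.2, 45.0, 84.3, 37.7 and 97.0 CPM. Each of those groups held 2 libraries far above the others, and the groups overlapped over most of their range.

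**Figure D1:**
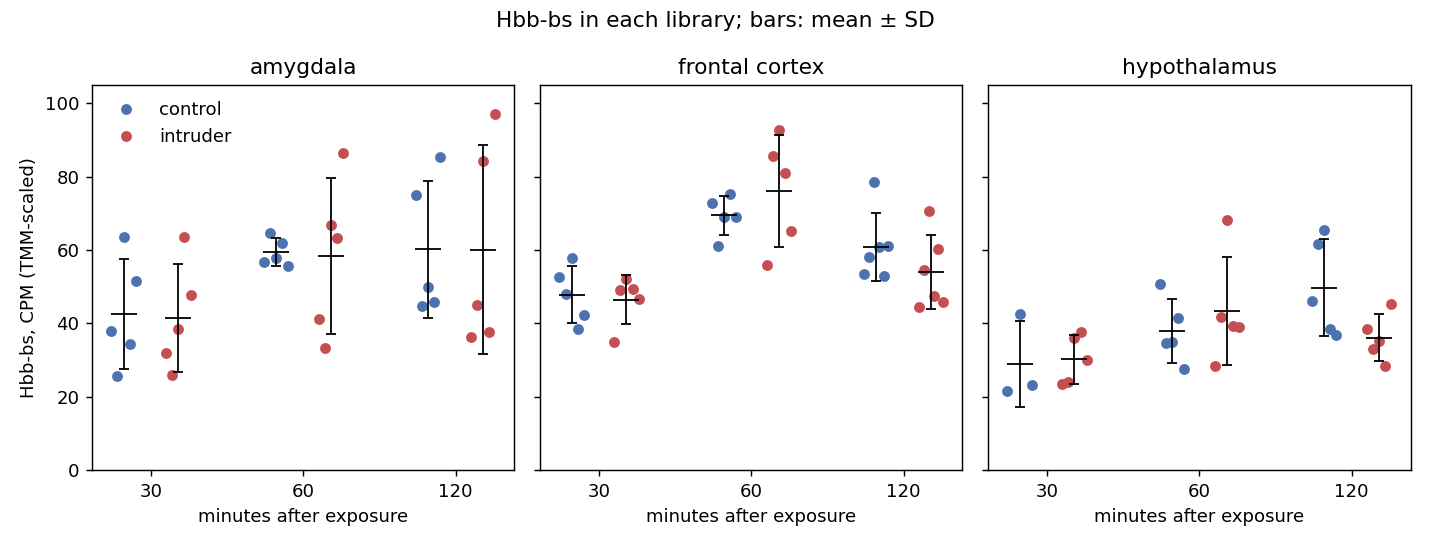
Hbb-bs in each of 90 libraries, in CPM, by region and by minutes after exposure; points are libraries (blue control, red intruder), horizontal marks group means and bars ± 1 SD. Frontal cortex is highest at 60 min, amygdala is the most spread, and hypothalamus is mostly below 50 CPM.

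The 5 members varied together across libraries. Every pair of members was correlated within every region after each library's group mean had been removed: 30 of 30 relations passed a permutation test within groups (100000 permutations, Benjamini-Hochberg over 30). Pearson's r ran from 0.936 to 0.991 over 30 amygdala libraries, from 0.815 to 0.960 over 32 of frontal cortex and from 0.908 to 0.981 over 28 of hypothalamus. Spearman's rho ran from 0.887 to 0.992, from 0.814 to 0.944 and from 0.876 to 0.969. The largest adjusted p was 2e-05 and most stood at the smallest value these permutations can give. Without the 2 libraries farthest from the median the lowest r was 0.920, 0.777 and 0.865 in the same order of regions. Pairs of globin copies share reads, but Alas2 shares none, and its r with Hbb-bs was 0.957 (amygdala), 0.847 (frontal cortex) and 0.919 (hypothalamus).

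**Figure D2:**
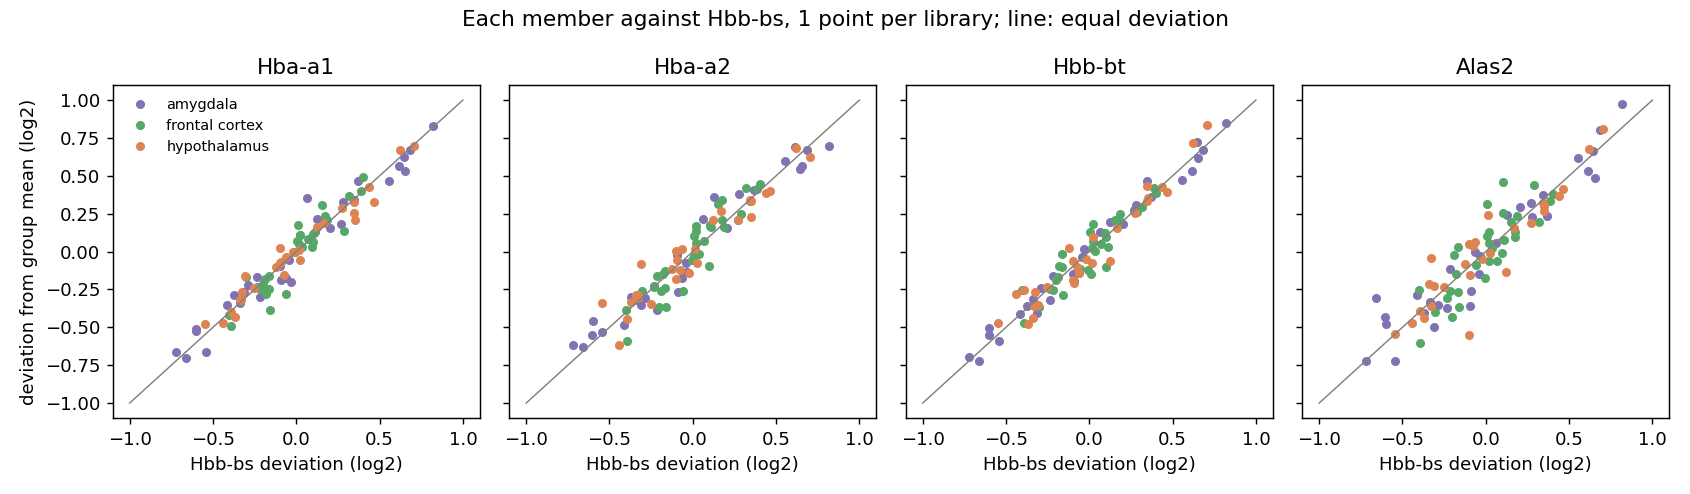
Deviation of Hba-a1, Hba-a2, Hbb-bt and Alas2 from the group mean (log2 CPM, y axis) against that of Hbb-bs (x axis) in 90 libraries, coloured by region; the line marks equal deviations. Points follow the line in every panel, and amygdala libraries span the widest range.

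Of 4 proportions among the members, 3 varied somewhat more than counting error alone gives. Hba-a1 had a median of 1.315 reads for each read of Hba-a2 (1.179 to 1.512 over 90 libraries, CV 5.79%), where counting error alone gives a median CV of 4.92%. Hbb-bs had 5.28 reads for each read of Hbb-bt (4.14 to 6.47, CV 7.36% against 5.15% from counting). Alas2 had 26.8 reads per 1000 globin reads (20.6 to 37.5, CV 11.5% against 9.14% from counting). Over all 90 libraries the CV of each of these proportions was less than 1.5 times that from counting, while the levels themselves spanned 3.67-fold (Hba-a2) to 5.27-fold (Alas2) from the lowest to the highest library. By region, Hbb-bs over Hbb-bt had a CV of 8.89% in hypothalamus (5.68% from counting), 7.41% in frontal cortex (4.95%) and 5.355% in amygdala (5.05%).

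Alpha reads relative to beta reads differed by region in the same animals. Both alpha genes over both beta genes gave a median of 0.589 in frontal cortex (0.497 to 0.664, n = 32), 0.634 in amygdala (0.546 to 0.711, n = 30) and 0.689 in hypothalamus (0.613 to 0.798, n = 28). Over all 90 libraries its CV was 9.05%, against a median of 3.08% from counting. The hypothalamus had the higher ratio in 28 of 28 animals with both that region and frontal cortex, by a median factor of 1.17 (1.02 to 1.45). It was above amygdala in 24 of 28 animals (median factor 1.08), and amygdala was above frontal cortex in 23 of 30 (median factor 1.08). The ratio within the alpha pair had no such order: it was higher in hypothalamus than in frontal cortex in 18 of 28 animals and higher in amygdala than in frontal cortex in 15 of 30. Split by time and condition, hypothalamus and frontal cortex did not overlap in 6 of 6 combinations, with 0.688 to 0.744 against 0.514 to 0.664 in the 120 min controls and narrow gaps in the 60 min controls (0.613 to 0.718 against 0.570 to 0.611) and the 30 min intruder animals (0.645 to 0.798 against 0.547 to 0.643). Amygdala had the higher median than frontal cortex in 5 of 6, the exception being the 60 min controls (0.566 against 0.593). Library index moved with region, and 2 indexes held libraries of more than 1 region. One index held 6 frontal cortex libraries at 0.514 to 0.664 and 2 hypothalamus libraries at 0.725 and 0.798, and another held 6 amygdala libraries at 0.565 to 0.652 and 2 frontal cortex libraries at 0.547 and 0.549. These libraries also differ in time and condition (120 min controls in frontal cortex against 30 min intruder animals in hypothalamus for the first, 120 min in amygdala against 30 min intruder animals in frontal cortex for the second), so the part of the index was not tested. No test was made of this ratio, since it is a score over the members.

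**Figure D3:**
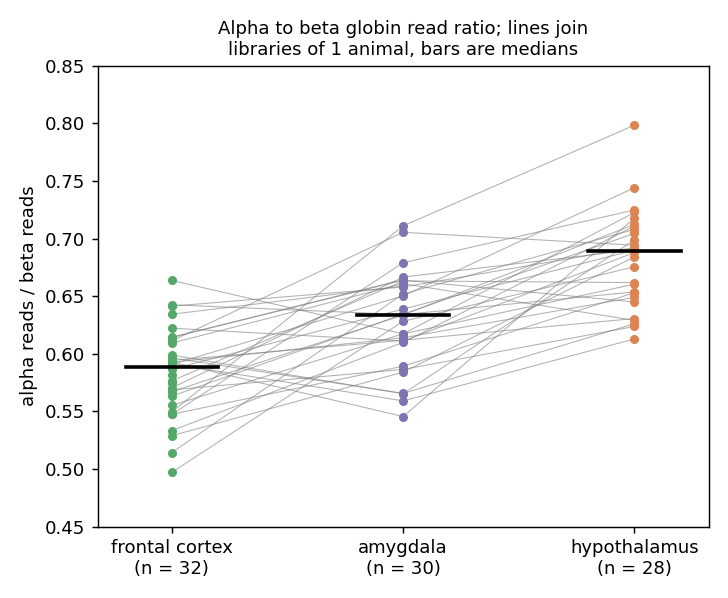
Reads of Hba-a1 plus Hba-a2 divided by reads of Hbb-bs plus Hbb-bt (y axis, not starting at 0) in each library by region; thin lines join libraries of 1 animal and thick bars are medians. The medians step from 0.589 to 0.634 to 0.689, and every animal with both regions is higher in hypothalamus than in frontal cortex.

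Between regions, all 5 members were lower in hypothalamus. The main fit over regions held no term for the animal, so its SEs and p-values do not use the pairing of regions within animals. Against frontal cortex the log2 fold changes were -0.43 ± 0.0980 (SE) for Hba-a1, -0.42 ± 0.0996 for Hba-a2, -0.65 ± 0.0982 for Hbb-bs, -0.60 ± 0.101 for Hbb-bt and -0.47 ± 0.107 for Alas2. All 5 passed edgeR's quasi-likelihood test at an adjusted p of 0.05 (the largest was 7.86e-05), in a comparison in which 87.4% of 18337 genes were called and 42.2% were called lower. A call is therefore common here, and the count of members says little beyond that background. Hbb-bs was lower in hypothalamus than in frontal cortex in 27 of 28 animals (median ratio of CPM 0.601) and Hba-a1 in 23 of 28 (0.727). Medians of Hbb-bs were 57.0 CPM in frontal cortex (35.0 to 92.8), 50.8 CPM in amygdala (25.7 to 97.0) and 37.2 CPM in hypothalamus (21.5 to 68.1).

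Amygdala also exceeded hypothalamus, and did not differ by call from frontal cortex in the fit without the animal. Against hypothalamus 5 of 5 members were called higher in amygdala (log2 fold change 0.39 to 0.52, edgeR adjusted p at most 0.000316), where 80.1% of genes were called and 40.6% higher. Between amygdala and frontal cortex edgeR called 0 of 5 (log2 fold change -0.13 to -0.02, 0 with an unadjusted p below 0.05) in a comparison that called 76.7% of genes. With the animal as a block 1 member was called there, Hbb-bs at -0.17 with an adjusted p of 0.0498, and limma voom with the animal as a random effect called the same 1. When each of the 6 combinations of time and condition was fitted alone, 29 of 30 fold changes of hypothalamus against frontal cortex were negative and 30 of 30 of amygdala against hypothalamus positive, but the number of members called ran from 0 to 5 in both comparisons. Marker lists of other cells moved in the same comparison of hypothalamus with frontal cortex: 11 of 12 endothelial, 8 of 10 mural, 10 of 10 microglial and 11 of 13 leukocyte and platelet genes tested were called lower, and 8 of 8 oligodendrocyte genes higher. The part of tissue makeup in the regional levels was not tested.

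Intruder exposure gave no called change in any member. At 30, 60 and 120 min in each of 3 regions, edgeR called 0 of 5 members, and so did DESeq2 and limma voom. The share of all genes called was 0% in 7 of these 9 comparisons; the 120 min comparison called 0.538% in amygdala and 0.192% in hypothalamus. Calls of any gene were thus rare. In amygdala the members' log2 fold changes lay between -0.15 and 0.11 with standard errors of 0.287 to 0.314, the widest of the regions. In frontal cortex they lay between -0.05 and 0.13 at 30 and 60 min and between -0.26 and -0.14 at 120 min, with standard errors of 0.123 to 0.180. Hypothalamus gave 0.01 to 0.20 at 30 and 60 min. In these 8 comparisons 0 of 5 members had an unadjusted p below 0.05.

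Hypothalamus at 120 min gave larger values. Hbb-bs read 46.2, 61.8, 65.4, 38.6 and 36.7 CPM in the controls and 38.6, 32.9, 35.1, 28.4 and 45.4 CPM in the intruder animals. Hba-a1 read 22.7, 29.4, 31.2, 18.7 and 17.6 CPM against 17.9, 15.04, 16.03, 13.3 and 18.5 CPM. For both genes the controls comprised 3 higher libraries (1, 2 and 3), above every intruder library, and 2 lower ones (4 and 6), which lay within the intruder range for Hbb-bs and within or just above it for Hba-a1. The 2 lower controls carried another index than the other 8 libraries of the comparison. Intruder library 1 stood apart in having 10.05% of reads outside genes (11.6% to 12.6% in the other 9) and 10.88% not unique (9.92% to 10.3%); without it the members' log2 fold changes were -0.72 to -0.50, with 0 called by edgeR. Alas2 read 3.02, 3.66, 3.75, 2.27 and 2.20 CPM in the controls and 1.60, 1.68, 1.71, 1.72 and 2.18 CPM in the intruder animals; here alone among the 45 combinations of member and comparison the groups did not overlap, the highest intruder library lying just under the lowest control. Groups did not overlap for 1.28% of all genes in that comparison, and in the other 8 for 0.799%, 0.382% and 3.15% in amygdala at 30, 60 and 120 min, 1.08%, 0.374% and 0.257% in frontal cortex, and 3.21% and 0.487% in hypothalamus at 30 and 60 min. The log2 fold changes were -0.57 ± 0.212 (SE) for Hba-a1, -0.61 ± 0.214 for Hba-a2, -0.47 ± 0.222 for Hbb-bs, -0.57 ± 0.237 for Hbb-bt and -0.75 ± 0.239 for Alas2. All 5 had an unadjusted p below 0.05, the lowest 0.00411 for Alas2, and after Benjamini-Hochberg adjustment in edgeR over 17676 genes they stood at 0.253 to 0.427. With the leading index as a block the fold changes were -0.97 to -0.68 and the adjusted p in edgeR 0.109 to 0.160. The 2 lower controls are the only libraries of their index, so that fit in effect sets only controls 1, 2 and 3 against the intruder libraries.

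Vessel genes moved beside the members in that comparison. Of 12 endothelial genes 7 were called lower, among them Cd34 at -0.54 (adjusted p = 0.000586 in edgeR), the efflux transporter Abcb1a at -0.77 and the junction protein Pecam1 at -0.63, and the median of the list was -0.51. Of 10 mural genes 3 were called lower, the pericyte gene Rgs5 at -0.72 and the smooth muscle genes Tagln and Acta2 at -1.47 and -1.25. Summed endothelial CPM was 271 to 294 in the controls and 168 to 230 in the intruder libraries, and summed mural CPM 164 to 200 against 107 to 137, with no overlap in either. Meningeal and fibroblast genes had negative values in 10 of 10 (median -0.94) and 0 calls, while their summed CPM overlapped (347 to 1428, median 386, against 351 to 441, median 383). Leukocyte and platelet genes had 0 calls of 12 tested (median -0.30, summed CPM 14.3 to 17.9 against 14.7 to 16.4), and the median over all genes tested was 0.00. The part of the amount of vessel in the members' values was not tested.

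**Figure D4:**
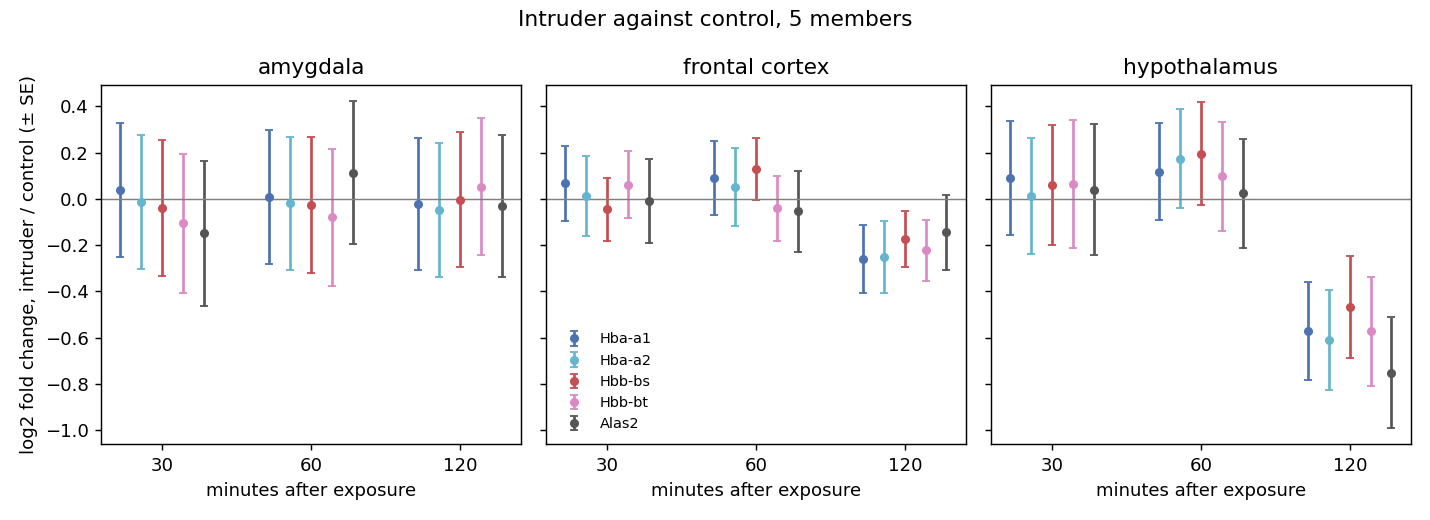
Log2 fold change of intruder over control (y axis, bars ± SE) for the 5 members at each time (x axis, minutes) in each region. Values run from -0.75 to -0.47 in hypothalamus and from -0.26 to -0.14 in frontal cortex at 120 min, and from -0.15 to 0.20 in the other 7 comparisons, with 0 of 5 called in each.

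The difference in effect between times or regions was tested directly. edgeR called 0 of 5 members for a change of the intruder effect between times in each region (all genes: 0% in amygdala and frontal cortex, 0.0113% in hypothalamus), and DESeq2 and limma voom called 0 as well. In hypothalamus 2 of 5 had an unadjusted p below 0.05 in that test, and 0 of 5 in the others. Between regions, edgeR called 0 of 5 at each time (all genes: 0% at 30 and 60 min, 0.0109% at 120 min), 0 of 5 had an unadjusted p below 0.05 and limma voom called 0. The negative hypothalamic fold changes at 120 min are thus not shown to be particular to that time or region. Mean Hbb-bs in hypothalamus controls was 29.05, 37.9 and 49.7 CPM at 30, 60 and 120 min. In intruder animals it was 30.2, 43.3 and 36.1 CPM, so the 120 min controls were the highest group.

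In frontal cortex the members differed between times after exposure. Hbb-bs read 52.6, 48.1, 57.9, 38.6 and 42.3 CPM in the 30 min controls and 72.7, 61.1, 69.0, 75.2 and 69.0 CPM in the 60 min controls. In intruder animals it read 35.0, 49.0, 52.1, 49.4 and 46.7 CPM at 30 min and 56.0, 85.7, 92.8, 80.9 and 65.2 CPM at 60 min. Every 60 min control was above every 30 min control, and the intruder libraries likewise did not overlap between these times. At 120 min the 6 controls ran from 52.9 to 78.5 CPM (median 59.5) and the 6 intruder libraries from 44.6 to 70.6 CPM (median 51.1), both medians lying between those of the earlier times.

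The test over the 3 times called the 4 globin genes in both conditions. In controls the adjusted p in edgeR was 0.0151 for Hba-a1, 0.0201 for Hba-a2, 0.0103 for Hbb-bs and 0.00374 for Hbb-bt, and Alas2 stood at 0.0596, with 33.4% of all genes called. In intruder animals Hbb-bs had 0.000273 and the other globin genes 0.00296 to 0.00486, and Alas2 stood at 0.0570, with 46.1% of all genes called. Without library 5 of the 30 min controls, 2 members were called in controls. DESeq2 called 5 in each condition, and limma voom 5 in controls and 4 in intruder animals. Calls were common among all genes here, and the count of members has to be read against them.

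Pairwise comparisons, added after the time tests had been seen, gave calls for the steps to and from 60 min. From 30 to 60 min 5 of 5 members rose in controls (log2 fold change 0.52 to 0.64, largest adjusted p 0.0213 in edgeR; all genes 35.4% called, 17.2% higher). They also rose in intruder animals, 5 of 5 (0.48 to 0.70, largest adjusted p 0.0274; all genes 45.5% called, 22.3% higher). For Alas2 the fold changes were 0.52 ± 0.177 (SE) and 0.48 ± 0.177. From 30 to 120 min edgeR, DESeq2 and limma voom called 0 of 5 in each condition (controls 0.26 to 0.41, intruder animals 0.08 to 0.21; 4 and 0 with an unadjusted p below 0.05; all genes 4.42% and 17.7% called). From 60 to 120 min 4 of 5 were called lower in intruder animals (-0.54 to -0.44 for the globin genes, adjusted p 0.00871 to 0.0255 in edgeR). Of all genes 22.9% were called and 10% lower. Alas2 was lower too, at -0.35, but not called (adjusted p 0.126 in edgeR). The count of called members was 2 without library 2 or 3 of the 60 min or library 1 or 6 of the 120 min intruder animals, and 0 with the index as a block. In controls the same step gave -0.26 to -0.19 and 0 calls by edgeR, DESeq2 and limma voom, 0 with an unadjusted p below 0.05, against 15.9% of all genes, and the difference between the conditions over time was not called, as given above.

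Frontal cortex libraries at 60 min stood apart in other ways. Reads at more than one place in the genome made up a median of 11.3% of the total there against 10.2% at 30 min and 10.4% at 120 min, and reads outside genes a median of 9.23% against 11.7% and 9.99%. Oligodendrocyte genes rose from 30 to 60 min in 8 of 8 cases in both conditions (median log2 fold change 0.79 in controls and 0.65 in intruder animals), with Mbp, a myelin protein, at 0.77 and 0.76. The summed CPM of the oligodendrocyte genes was 3096 to 3953 in the 30 min and 4531 to 7002 in the 60 min controls. Astrocyte genes were called lower in 4 of 8 cases in controls, and in intruder animals 3 lower and 1 higher; their summed CPM was 5415 to 6062 at 30 min and 4281 to 5249 at 60 min in controls, and 5396 to 6111 and 4519 to 4982 in intruder animals, with no overlap between times. Vessel genes went the other way in part: in controls 5 of 12 endothelial and 5 of 10 mural genes were called lower and 0 higher, and in intruder animals 6 and 4 lower and 2 and 0 higher. Meningeal and fibroblast genes were called lower in 7 of 10 (controls) and 4 of 10 (intruder animals). In this step 35.4% of all genes were called in controls and 45.5% in intruder animals. The counts of each list have to be read against those shares. Leukocyte and platelet genes gave 1 higher call of 12 tested, Ighm at 0.70, and 2 lower; its summed CPM was 30.6 to 47.9 at 30 min and 48.6 to 60.1 at 60 min in controls, and 26.4 to 36.2 and 36.9 to 57.6 in intruder animals, with no overlap between times. That sum is carried mainly by Ighm, most other genes of the list lying below 1 CPM. Their part in the members' change was not tested. The index groups of the 30 min and the later frontal cortex libraries were disjoint, so the index could not be fitted there. From 30 to 60 min time, index and token therefore cannot be told apart, and the part of tissue makeup was not tested.

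**Figure D5:**
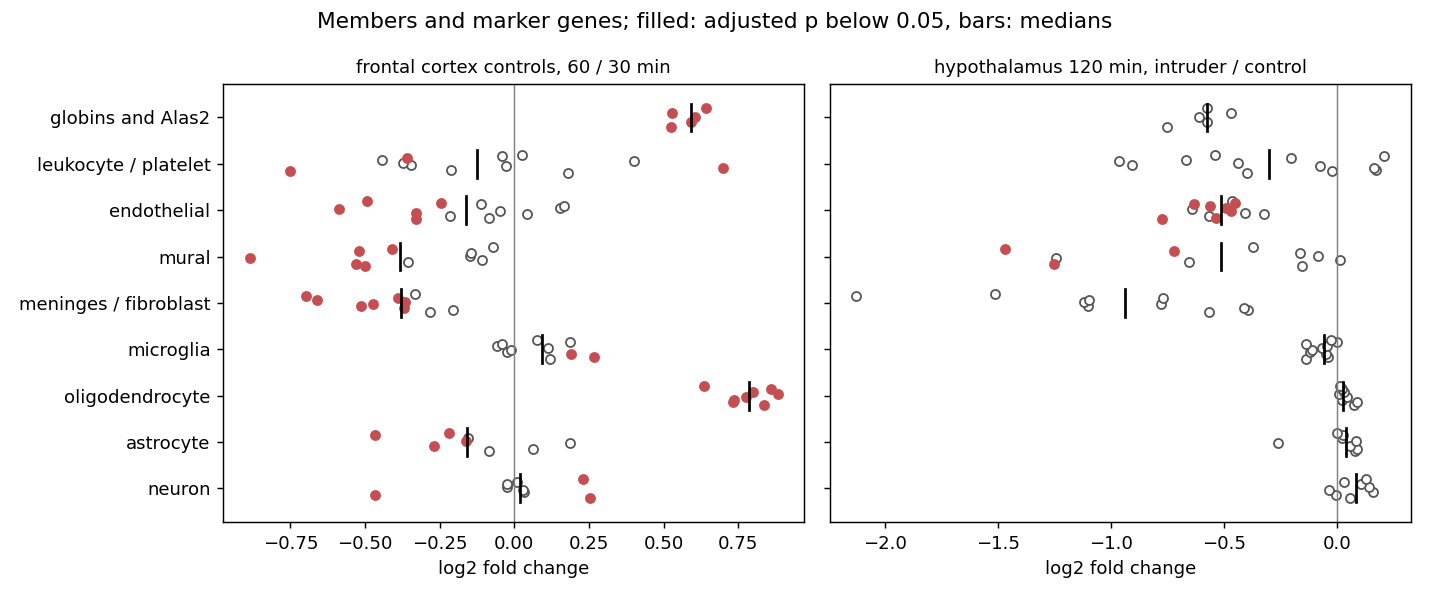
Log2 fold change (x axis) of each measured gene of 9 lists (rows) in frontal cortex controls at 60 against 30 min (left) and in hypothalamus at 120 min, intruder against control (right); filled points had an adjusted p below 0.05 in edgeR and bars are list medians. On the left the members are on the side of the oligodendrocyte genes and opposite to mural and meningeal genes, and on the right they lie with endothelial, mural and meningeal genes.

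Amygdala and hypothalamus gave no called time change. edgeR, DESeq2 and limma voom called 0 of 5 members in the tests over the 3 times in amygdala (all genes 0.232% in controls and 12.9% in intruder animals) and in hypothalamus (0.181% and 1.49%). Unadjusted p values below 0.05 were found for 0 of 5 in amygdala in both conditions, and in hypothalamus for 5 of 5 in controls and 1 of 5 in intruder animals. Fold changes from 30 to 60 min were nevertheless positive in 10 of 10 cases in amygdala (0.30 to 0.58) and 10 of 10 in hypothalamus (0.29 to 0.64), with 0 called against 0.133% and 7.41% of all genes in amygdala (controls and intruder animals) and 0.017% and 0.0792% in hypothalamus. With the index as a block, the 60 min step in hypothalamus was negative for the 4 globin genes in controls (Hba-a1 -0.038, Hba-a2 -0.018, Hbb-bs -0.083, Hbb-bt -0.016) and for Hba-a1 and Hbb-bt in intruder animals (-0.0058 and -0.030). From 30 to 120 min they were positive in 10 of 10 and 10 of 10 (0.39 to 0.61 and 0.09 to 0.94), again with 0 called by the 3 tools (all genes 0.145% and 15% in amygdala, 0.175% and 1.93% in hypothalamus). In hypothalamus the unadjusted p in edgeR was below 0.05 from 30 to 60 min for 1 of 5 in controls and 4 of 5 in intruder animals. From 30 to 120 min it was so for 5 of 5 and 0 of 5, and in amygdala for 0 of 5 in each of these steps. With the index as a block, the 120 min step in amygdala was negative for 5 of 5 members in controls (-0.76 to -0.54) and for Hba-a1 and Hba-a2 in intruder animals (-0.13 and -0.085). From 60 to 120 min 6 of 10 values were positive in amygdala (-0.11 to 0.13), and in hypothalamus 5 of 5 in controls (0.22 to 0.48) and 0 of 5 in intruder animals (-0.48 to -0.25). The 3 tools called 0 there too, with an unadjusted p below 0.05 in edgeR for 2 of 5 in hypothalamus controls and 0 of 5 in the other 3 (all genes 0.0232% and 0.0695% in amygdala, 0.0396% and 0.441% in hypothalamus). Members move together, and steps of a condition share libraries, so these signs are not separate observations. The 30 min control group of hypothalamus held 3 libraries, with Hbb-bs at 21.5, 42.5 and 23.2 CPM.

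Levels of a member in 2 regions of the same animal were not called correlated. Of 15 correlations of a member between 2 regions, with group means removed, 0 passed (Benjamini-Hochberg over 15). The highest was Hbb-bs between frontal cortex and hypothalamus, with r = 0.529 (permutation p = 0.00886, adjusted 0.119; rho = 0.502, permutation p = 0.0107, adjusted 0.0857; n = 28), and the 5 members had r = 0.408 to 0.529 for that pair of regions, between the 90.3 and 97.1 percentiles of 16740 genes (median 0.12). Between amygdala and frontal cortex r ran from 0.080 to 0.245 over 30 animals (median of all genes 0.074), and between amygdala and hypothalamus from 0.228 to 0.448 over 28 (median of all genes 0.16). Without the 2 farthest animals the range between frontal cortex and hypothalamus was 0.290 to 0.451. Without removal of group means 11 of 15 passed, so much of the shared variation lay between groups.

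Hbb-bs was set against 6 marker lists of other cells in each region: leukocytes and platelets, endothelium, mural cells, microglia, choroid plexus and meninges with fibroblasts. Of 18 relations between Hbb-bs and the mean of a list, 4 passed (permutation test within groups, Benjamini-Hochberg over 18). The leukocyte and platelet list passed in frontal cortex (r = 0.499, permutation p = 0.00912, adjusted 0.0418; rho = 0.535, n = 32) and in hypothalamus (r = 0.568, permutation p = 0.00351, adjusted 0.0316; rho = 0.565, n = 28), and stood at r = 0.506 with an adjusted p of 0.0521 by permutation in amygdala. Microglial genes (r = 0.558, adjusted permutation p = 0.0316) and endothelial genes (r = 0.454, adjusted permutation p = 0.0418) passed in amygdala. The median r of their single genes stood there at the 87.3 and 84.8 percentiles of all genes. That of oligodendrocyte genes, which were not among the 6 lists tested, stood at 94.6. Without the 2 farthest libraries 2 of the 18 passed, amygdala with microglia (r = 0.595) and hypothalamus with leukocytes and platelets (r = 0.598), while the relations in frontal cortex (r = 0.400) and with amygdala endothelium (r = 0.382) no longer passed (adjusted permutation p = 0.111 for each). Endothelial genes had r = 0.152 in frontal cortex and 0.199 in hypothalamus.

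The genes most alike to Hbb-bs outside the members differed by region. In hypothalamus they were Ppbp, a platelet chemokine (r = 0.711 over 28 libraries), then Fkbp7, Tmod3 (a tropomodulin), Isg20 and Srgn (serglycin, a granule proteoglycan of blood cells), down to r = 0.630. Ppbp is low there, at a median of 0.122 CPM, so its rank rests on few reads. In amygdala they were Dnajb2 (r = 0.806 over 30 libraries), Stx4a, Fitm2, Atic and Iscu, down to 0.763, at 29.2 to 60.1 CPM. In frontal cortex they were Casp4 (r = 0.685 over 32 libraries), Rad9a, Alkbh3, Dcxr and the unnamed ENSMUSG00000093760, down to 0.609, with Casp4 at only 0.275 CPM. In each region the 4 other members were more alike to Hbb-bs than any of these. Amygdala oligodendrocyte genes had a positive r in 8 of 8 (median 0.563, all genes 0.015) and cortical genes a median of -0.51, while in frontal cortex and hypothalamus oligodendrocyte genes were negative in 8 of 8 (medians -0.101 and -0.124). Meningeal and fibroblast genes were positive in 10 of 10 in hypothalamus (median 0.413, all genes 0.001), 9 of 10 in frontal cortex (0.284, all genes -0.013) and 8 of 10 in amygdala (0.134). The part of these cell types in the members' levels was not tested.

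Heme synthesis genes other than Alas2 had no common relation to the members. Of 8 such genes, 4 (amygdala), 5 (frontal cortex) and 2 (hypothalamus) had a positive r with Hbb-bs, with medians of -0.044, 0.153 and -0.114. Genes of heme and globin clearance were positive in 7 of 8 in amygdala (median 0.338), 7 of 8 in frontal cortex (0.097) and 5 of 9 in hypothalamus (0.020). In hypothalamus at 120 min edgeR called 0 of 8 heme synthesis genes between intruder and control (median -0.06), and 0 of 9 genes of heme and globin clearance, such as Hmox1, the heme oxygenase induced by free heme, and Cd163, the haemoglobin receptor of macrophages (list median 0.05). In frontal cortex from 30 to 60 min 2 of 8 heme synthesis genes were called higher in controls, and in intruder animals 4 of 8 higher and 1 lower, where 17.2% and 22.3% of all genes were called higher; the list medians were 0.08 and 0.10 beside 0.59 and 0.61 for the members.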

How the data were processed

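Libraries were stranded, poly(A)-selected and single-end, per the labels' protocols. The deposited values are raw read counts per Ensembl gene, as the authors made them; the submitters' processing notes name TopHat2 2.0.8, HTSeq 0.6.1 and NCBIM37, while strand setting and annotation are not given in the sources used here. Counts for reads outside genes, ambiguous or not unique were left out of library sizes. Reads of near-identical globin copies can be lost or split by such counting. Counts were tested with edgeR 4.0.16 (R 4.3.3; filterByExpr, TMM, quasi-likelihood F test, Benjamini-Hochberg over all genes of a fit, threshold 0.05), 1 fit per region with 6 groups, and 1 fit of all 90 libraries with 18 groups for regions. DESeq2 1.42.0 and limma 3.58.1 were alternatives. Correlations used log2 CPM (prior count 2) minus group means. Scripts were tested on simulated counts.

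Members and gene lists were chosen with earlier results of these data known. Named are the 5 members, list genes (up to 4 examples a list) and, per region, the 5 genes most correlated with Hbb-bs; Cd3e and the other genes named for a low or high level were picked as examples after their values were seen. Animals were paired across regions by label. Intruder and control animals with the same number were not paired: over 41 such pairs the correlation of deviations ran from -0.503 to 0.557, and in 0 of 9 sets was every pair above 0.1.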

Additional observations from a re-analysis of the deposited data

Results flagged for a closer look

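In groups of 4 to 10 libraries, 6 of 85 combinations of member and group had 1 library far from the rest by Dixon's criterion, which chance gives in about 1 of 20. In hypothalamus, intruder animal 3 at 60 min had Hba-a2 at 22.07 CPM (next 14.3) and Hbb-bt at 14.82 CPM (next 7.75). In frontal cortex, control 3 at 120 min had Hbb-bs at 78.49 CPM (next 61.2) and Hbb-bt at 15.3 CPM (next 11.7). Hbb-bt was low, at 6.575 CPM, in frontal cortex intruder animal 1 at 30 min (next 9.58). Alas2 was 2.185 CPM in hypothalamus intruder animal 6 at 120 min (next 1.72), which is the library nearest to the controls of that comparison. Members move together, so 2 entries from 1 library are 1 observation.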

How the results depend on the processing

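Alternatives were another test or scaling, no filter, a block and leaving out libraries. Of 955 counts and summary values 936 were kept. A count was kept if within 1.5 times. A read ratio was kept if it moved by less than 1 standard deviation over libraries, and a spread if by less than 1 standard deviation over the members. For single members 4469 of 4560 values kept direction and side of the threshold. Intruder counts were 0 in 179 of 179 alternatives. A sign change was counted as a reversal only where a value was called or larger than its SE; 205 of 3205 fold changes changed sign in all. The number of members called between hypothalamus and frontal cortex was 1 (30 min control), 0 (120 min control), 3 (30 min intruder) and 2 (120 min intruder) in those libraries alone, and between amygdala and hypothalamus 0 in 30 and 120 min control and in 30 and 60 min intruder libraries alone; the groups are then small. In 120 min libraries alone, Alas2 was 0.019 in hypothalamus against frontal cortex (controls), and Hbb-bs and Hbb-bt 0.16 and 0.20 in amygdala against frontal cortex (intruder). With the animal as a block, or voom with it as a random effect, 1 member was called between amygdala and frontal cortex. The replicate number as a replicate block, which pairs nothing here, gave 2 calls from 30 to 120 min in frontal cortex controls, where 0 were called without it. With the index as a block, 0 were called from 60 to 120 min in frontal cortex intruder animals. It also turned amygdala 30 to 120 min in controls (Hba-a1 -0.76, Hba-a2 -0.62, Hbb-bs -0.54, Hbb-bt -0.76, Alas2 -0.72) and in intruder animals (Hba-a1 -0.13, Hba-a2 -0.085), and hypothalamus 30 to 60 min in controls (Hba-a1 -0.038, Hba-a2 -0.018, Hbb-bs -0.083, Hbb-bt -0.016) and in intruder animals (Hba-a1 -0.0058, Hbb-bt -0.030), with adjusted p of 0.827 to 0.997 in edgeR. The cause was not tested. Leaving out 1 library gave 2 to 5 calls over time in frontal cortex controls and 2 to 4 from 60 to 120 min in its intruder animals. Correlations between regions that passed were 11 without centring, and with marker lists 2 without the 2 farthest. The index could not be fitted for frontal cortex at 120 min between conditions and over times, its comparisons with 30 min and of 60 with 120 min in controls, nor for hypothalamus over times and its steps to 120 min. Alas2, at 58 to 276 reads, is the least precise member; intervals from counts cover counting error only.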
